A study of Mus musculus with 8 samples.

Results

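The genes described here are 48 genes of cell division, of which 23 act in DNA replication and 25 in mitosis. They were chosen by name among the 23997 gene symbols of the series, and each of the 48 had a record in every library. The rule names the genes and sets no threshold on any value. All 48 passed the filter on low values in every comparison.

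DNA replication begins when the loading factors CDC6 and CDT1 place the ring-shaped MCM helicase on origins. CDC45 and the GINS complex then activate the ring, and polymerases follow it on the sliding clamp PCNA. Mitosis is driven by cyclin B and CDK1, is timed by the spindle checkpoint and the anaphase-promoting complex, and ends when the cell divides across a spindle midzone. In dividing cells the replication genes are known to be transcribed mainly around the start of S phase under E2F factors, and the mitosis genes later, in G2, through a promoter element called CHR. The epithelial tips of the embryonic lung, which carry Sox9, are known as a dividing progenitor population.

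The series holds 8 RNA-seq libraries from embryonic lung of C57BL/6 mice, with labelling induced by tamoxifen. Translating ribosome affinity purification (TRAP) recovers mRNA on ribosomes that carry a tagged protein in chosen cells, here by immunoprecipitation of the ribosomal protein L10. The groups were TRAP at embryonic day 16 (E16) from Sox9 mutant lungs and from wild-type lungs with 2 libraries each, and wild-type TRAP and whole lung at E17 and at E14 with 1 library each. Every library title begins with Sox9, those of whole lung and wild type included, without saying what it stands for. The labels name neither the driver of the tagged ribosomes nor the part of Sox9 that the mutation alters, nor whether animals were pooled. They also do not explain an E13 in the titles of the E16 libraries. The series design calls the E14 comparison sample a supernatant, while its own label calls it whole lung homogenate. No label ties a replicate to its own animal, so the p-values rest on differences between libraries alone, which may be technical.

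Levels are FPKM, fragments per kilobase of transcript scaled to the size of the library, as deposited. Between 9783768 and 21500523 fragments lay behind a library, as inferred from the deposited confidence bounds. Between 336 and 9895 fragments lay behind each value of a member, which gives a counting error of at most 5.46%. Sox9 had 12.8 and 11.03 FPKM in the mutant libraries against 35.9 and 36.4 FPKM in the wild-type libraries. The summed level of 9 epithelial marker genes was 2663 and 2505 FPKM in TRAP at E17 and E14, against 909 and 536 FPKM in whole lung, and the sum of 8 mesenchyme markers was 105 and 86.4 FPKM in TRAP against 1333 and 1059 FPKM in whole lung, with no marker of either list at 0. Erythroid markers were present in every fraction, with 3326 and 2072 FPKM over 5 genes in TRAP at E17 and E14 against 13180 and 6251 FPKM in whole lung.

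Promoter letters differed between the classes. RefSeq promoter windows (GRCm38.p6, from 250 bases before to 50 bases after the start site) were matched for 40 of the 48 members, using for each gene the window nearest to the start of its deposited record. The E2F letters searched were TTTCCCGC, TTTCGCGC, TTTGCCGC and TTTGGCGC, and the CHR letters were TTTGAA and TTCGAA, each on both strands and with overlapping matches counted. E2F letters occurred in 8 of 19 replication windows (42.1%) and in 1 of 21 mitosis windows (4.76%), that of Cdk1, against 2.84% of the windows of all 16753 genes. CHR letters occurred in 17 of 21 mitosis windows (81%) and in 4 of 19 replication windows (21.1%), against 17.3% of all windows. CCAAT, the letters of the NF-Y factor, occurred in 85.7% of mitosis and 68.4% of replication windows and in 38.8% of all. These are matches of letters, not measured binding. Windows from 160 bases before to 20 bases after the start are printed for 3 replication members with E2F letters and 3 mitosis members with CHR letters, each of which passed at least 1 test described further on, and capitals mark the E2F or CHR letters. They lie at chr8:75109349-75109528 on the plus strand for Mcm5, chr1:128359686-128359865 on the minus strand for Mcm6, chr5:151651189-151651368 on the minus strand for Rfc3, chr2:164769769-164769948 on the plus strand for Ube2c, chr9:61946780-61946959 on the minus strand for Kif23 and chr11:99024170-99024349 on the minus strand for Top2a.
Mcm5: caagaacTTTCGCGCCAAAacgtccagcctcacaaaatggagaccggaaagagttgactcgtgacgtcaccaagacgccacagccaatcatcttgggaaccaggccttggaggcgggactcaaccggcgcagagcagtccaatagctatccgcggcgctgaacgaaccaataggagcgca
Mcm6: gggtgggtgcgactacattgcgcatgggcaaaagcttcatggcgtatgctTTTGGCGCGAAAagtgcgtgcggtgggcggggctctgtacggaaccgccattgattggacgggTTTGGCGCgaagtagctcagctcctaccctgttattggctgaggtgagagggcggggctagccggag
Rfc3: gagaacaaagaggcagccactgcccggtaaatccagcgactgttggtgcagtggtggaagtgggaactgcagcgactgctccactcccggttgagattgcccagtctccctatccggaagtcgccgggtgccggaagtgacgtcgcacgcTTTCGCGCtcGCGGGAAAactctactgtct
Ube2c: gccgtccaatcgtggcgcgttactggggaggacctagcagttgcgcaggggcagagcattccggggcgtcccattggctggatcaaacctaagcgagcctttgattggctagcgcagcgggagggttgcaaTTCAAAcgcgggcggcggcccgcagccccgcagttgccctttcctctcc
Kif23: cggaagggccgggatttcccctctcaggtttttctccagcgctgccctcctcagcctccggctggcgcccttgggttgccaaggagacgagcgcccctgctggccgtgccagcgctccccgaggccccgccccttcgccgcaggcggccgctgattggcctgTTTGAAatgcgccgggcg
Top2a: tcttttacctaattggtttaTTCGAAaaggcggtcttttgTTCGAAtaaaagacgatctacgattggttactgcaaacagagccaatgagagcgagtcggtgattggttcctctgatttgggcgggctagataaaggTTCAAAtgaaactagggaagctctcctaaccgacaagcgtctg
In Mcm5, and at the first site of Mcm6, a forward and a reverse E2F match overlap, so that a single stretch of capitals holds both. Rfc3 carries a forward and a reverse match side by side at the start site. In Ube2c, Kif23 and Top2a the last CHR match lies close to the start.

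**Figure D1:**
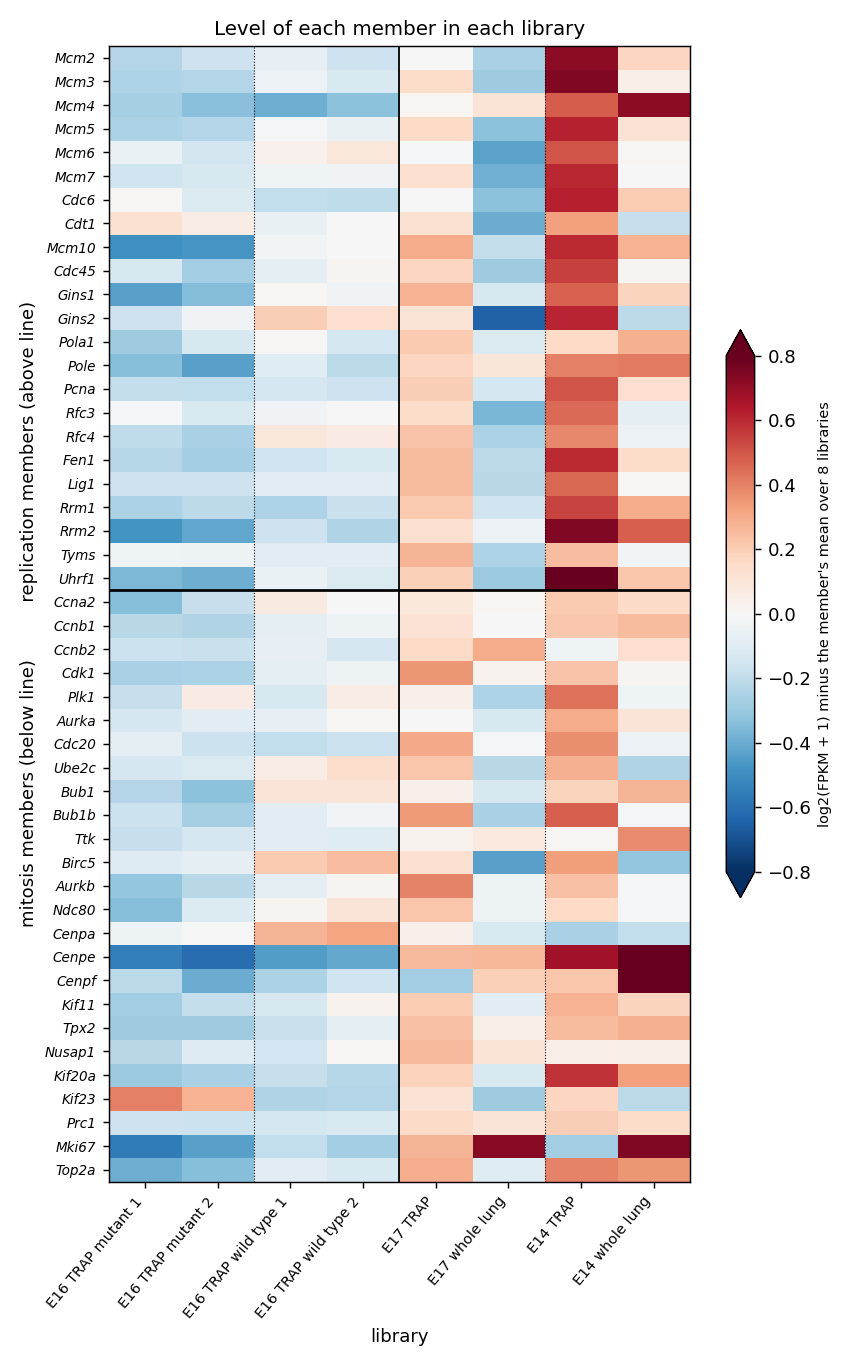
Level of each of the 48 members in each of the 8 libraries. Columns are libraries, rows are members with the 23 replication members above the thick line and the 25 mitosis members below it, and colour is log2(FPKM + 1) minus the mean of that member over the libraries, with the scale limited to 0.8 on either side; E14 TRAP is red in every replication row, and the mutant columns are blue in most rows, with Kif23 red.

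The first comparison sets mRNA recovered on ribosomes of the labelled cells beside mRNA of the organ. The cells, the binding to ribosomes and the immunoprecipitation differ together between these fractions and cannot be told apart. Most replication genes were higher in TRAP, while most mitosis genes did not pass. Of 23 replication members, 17 were higher and 6 did not pass limma's test with Benjamini-Hochberg adjustment at 0.05, where 23.6% of all 12320 records tested were higher. Of 25 mitosis members, 7 were higher, 2 were lower and 16 did not pass, where 17.1% of all records were lower, so that the share of mitosis members called higher was near that of all records. The median log2 difference of FPKM + 1 was 0.46 for replication and 0.16 for mitosis members, beside 0.05 for all records. TRAP was the higher fraction at both stages in 20 replication and 16 mitosis members, where 45.8% of records were, and the lower at both in 1 and 5, where 37.5% of records were. The fit joins both stages, and its p-values set the mean difference against an error variance. That variance combines the disagreement between stages (1 residual degree of freedom) with a prior drawn from all records (4.47 prior degrees of freedom).

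The MCM helicase shows the size of the replication difference. Mcm7, a subunit of the ring, had 103 FPKM in TRAP against 71.7 FPKM in whole lung at E17, and 144 FPKM in TRAP against 94.4 FPKM in whole lung at E14 (log2 0.56, SE 0.09, limma adjusted p = 0.00761). Mcm3, another subunit, had 66.6 FPKM in TRAP against 49.1 FPKM in whole lung at E17, and 101 FPKM in TRAP against 61.85 FPKM in whole lung at E14 (log2 0.56, SE 0.11, limma adjusted p = 0.0116). TRAP lay above whole lung at both stages in these and in the other subunits that passed, Mcm5, Mcm6 and Mcm2 (0.41). A pass in the joint fit makes such agreement likely, so it adds no support. Mcm5 had 67.7 FPKM in TRAP against 48.04 FPKM in whole lung at E17, and 93.2 FPKM in TRAP against 65.6 FPKM in whole lung at E14 (0.49, limma adjusted p = 0.0108). Mcm6 had 70.5 FPKM in TRAP against 52.45 FPKM in whole lung at E17, and 101 FPKM in TRAP against 71.3 FPKM in whole lung at E14 (0.46, limma adjusted p = 0.014). Mcm4 did not share the difference, with 37.55 FPKM in TRAP against 40.1 FPKM in whole lung at E17, and 52.4 FPKM in TRAP against 61.7 FPKM in whole lung at E14 (-0.16, limma adjusted p = 0.233).

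Among the members that load and activate the ring, 5 of 6 were higher. Gins2, a GINS subunit, had the highest log2 difference of the 48 members, with 101 FPKM in TRAP against 59.3 FPKM in whole lung at E17, and 143.5 FPKM in TRAP against 80.8 FPKM in whole lung at E14 (log2 0.79, SE 0.09, limma adjusted p = 0.00277). The Gins2 record overlaps that of Gse1, and no source used here states whether the counting was stranded. Cdt1 (0.52), Cdc45 (0.49), Mcm10, which helps to start the helicase (0.40), and Gins1 (0.35) also passed, while Cdc6 did not (0.37, limma adjusted p = 0.0603).

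Behind the helicase, the clamp and its loader were higher, and the large polymerase subunits did not pass. Pcna, the clamp, had 305 FPKM in TRAP against 241 FPKM in whole lung at E17, and 377 FPKM in TRAP against 292 FPKM in whole lung at E14 (log2 0.35, SE 0.09, limma adjusted p = 0.0304). The clamp loader subunits Rfc3 (0.52) and Rfc4 (0.46), the flap endonuclease gene Fen1 (0.46), the ligase gene Lig1 (0.46) and Uhrf1, whose product helps to copy DNA methylation (0.54), passed as well. Pola1, the catalytic subunit of polymerase alpha, had 9.34 FPKM in TRAP against 7.25 FPKM in whole lung at E17, and 9.002 FPKM in TRAP against 9.89 FPKM in whole lung at E14 (0.10, limma adjusted p = 0.636). Pole, that of polymerase epsilon, had 5.99 FPKM in TRAP against 5.64 FPKM in whole lung at E17, and 7.22 FPKM in TRAP against 7.30 FPKM in whole lung at E14 (0.03, limma adjusted p = 0.877). In these polymerases the order of the fractions differed between the stages. Of the genes that supply deoxynucleotides, Tyms passed (0.39), while the ribonucleotide reductase genes Rrm1 (0.31, limma adjusted p = 0.0544) and Rrm2 (0.22, limma adjusted p = 0.114) did not.

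Among mitosis members the 7 that rose were spread over several roles. Birc5, the survivin subunit of the chromosomal passenger complex, had 221.5 FPKM in TRAP against 150 FPKM in whole lung at E17, and 256 FPKM in TRAP against 162 FPKM in whole lung at E14 (log2 0.61, SE 0.09, limma adjusted p = 0.006). Bub1b, a gene of the spindle checkpoint, had 41.6 FPKM in TRAP against 27.0 FPKM in whole lung at E17, and 45.9 FPKM in TRAP against 32.4 FPKM in whole lung at E14 (log2 0.55, SE 0.10, limma adjusted p = 0.0102). Ube2c, the ubiquitin-conjugating enzyme of the anaphase-promoting complex, had 429 FPKM in TRAP against 315 FPKM in whole lung at E17, and 448 FPKM in TRAP against 311 FPKM in whole lung at E14 (log2 0.49, SE 0.09, limma adjusted p = 0.0124). The others were the midzone kinesin gene Kif23 (0.40), the kinase gene Plk1 (0.38), the anaphase activator Cdc20 (0.36) and the kinase gene Aurkb (0.34). Of the 6 mitotic cyclins and kinases, Plk1 passed, and the log2 differences of the others were 0.26 for Cdk1, 0.16 for Aurka, 0.06 for Ccna2, 0.04 for Ccnb1 and -0.16 for Ccnb2.

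The proliferation marker Mki67 and the kinetochore gene Cenpf went the other way. Mki67, whose protein coats mitotic chromosomes, had 11.35 FPKM in TRAP against 15.9 FPKM in whole lung at E17, and 7.44 FPKM in TRAP against 16.1 FPKM in whole lung at E14 (log2 -0.73, SE 0.17, limma adjusted p = 0.0207). Its difference at E14 alone was -1.02 on the log2 scale, and it was the only difference of a member between TRAP and whole lung within a stage that reached 2-fold. At E14, 6.01% of records were at least 2-fold higher and 9.43% at least 2-fold lower in TRAP, and at E17 the shares were 4.83% and 8.91%. Cenpf had 3.90 FPKM in TRAP against 5.78 FPKM in whole lung at E17, and 5.92 FPKM in TRAP against 9.93 FPKM in whole lung at E14 (log2 -0.56, SE 0.15, limma adjusted p = 0.0296). Ttk, a kinase gene of the spindle checkpoint, had 11.7 FPKM in TRAP against 12.1 FPKM in whole lung at E17, and 11.5 FPKM in TRAP against 15.1 FPKM in whole lung at E14 (-0.21, limma adjusted p = 0.259). Top2a, the topoisomerase of chromosome condensation, did not pass (0.22, limma adjusted p = 0.192).

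**Figure D2:**
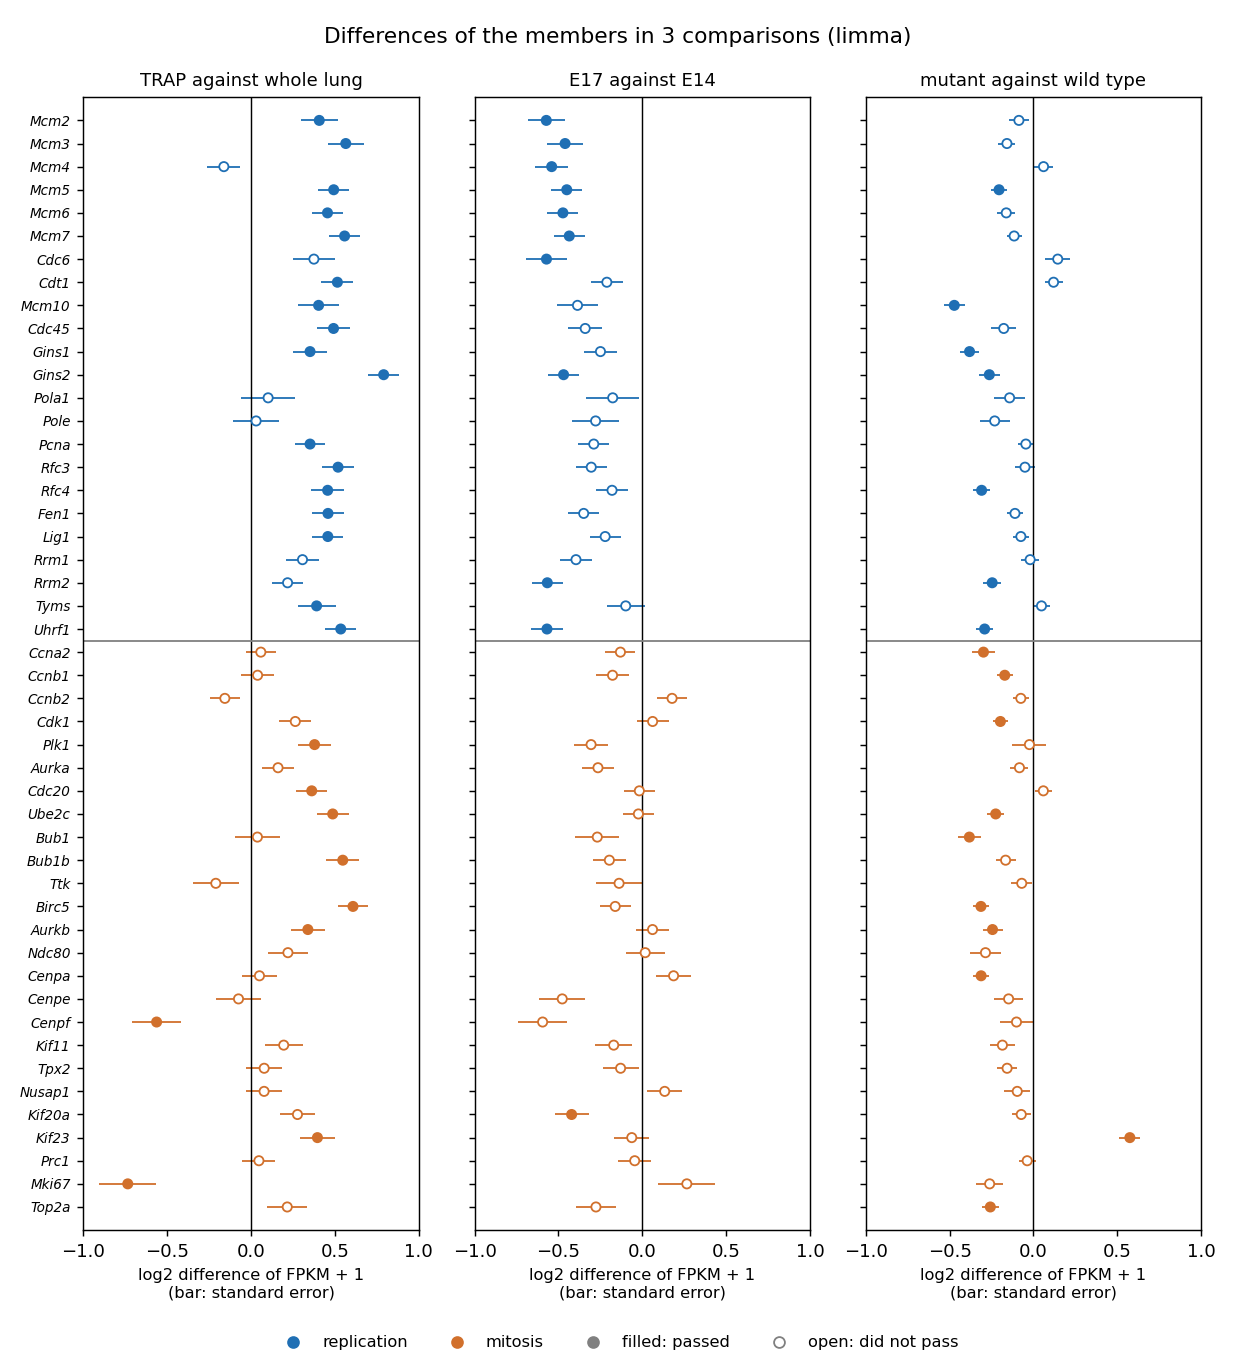
Log2 difference of FPKM + 1 of each member in 3 comparisons, taken as TRAP over whole lung, E17 over E14 and mutant over wild type. Points are estimates, bars are 1 standard error from limma, blue is replication, orange is mitosis, and filled points passed the adjusted threshold; 17 of 23 replication points are filled to the right in the first panel, 10 to the left in the second, and Kif23 alone is filled to the right in the third.

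The transcript length implied by the deposited bounds moved with the TRAP difference. It is inferred and not annotated, and anything else that widens the bounds of a gene would shorten it. The length implied by the deposited bounds, from fragments per unit of FPKM, was 14.4 kb for Cenpf, 13.2 kb for Mki67, 10.1 kb for Cenpe and 9.15 kb for Pole, the longest members, and 0.416 kb for Birc5 and 0.638 kb for Gins2, the shortest. Spearman's rho between implied length and the TRAP difference was -0.39 over the 48 members and -0.31 over 12259 records, given as a description over points that share the same 4 libraries. Within the classes rho was -0.47 over the 23 replication and -0.39 over the 25 mitosis members. The part of length in the result was not tested.

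**Figure D3:**
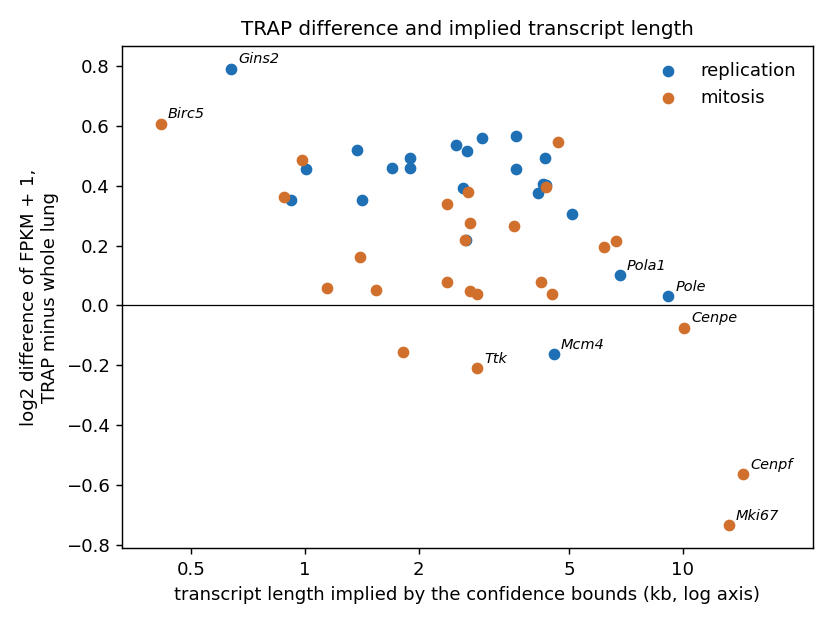
Log2 difference of FPKM + 1 of TRAP over whole lung (vertical axis) against the transcript length implied by the confidence bounds (horizontal log axis, kb) for the 48 members. Each point is 1 gene, blue for replication and orange for mitosis; Gins2 and Birc5, the shortest, lie highest, and Mki67 and Cenpf, the longest, lie lowest.

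The TRAP calls depend on the scale of the libraries. In bulk samples fewer cells of a type and less RNA per cell cannot be told apart. Every library was rescaled to a common FPKM total, of which the microRNA record Mir762 alone held 34.0% in E17 TRAP. The median of all records then shifted to -0.30. Limma called 0 replication members higher (0 at an unadjusted p under 0.05). Of all records 4.46% were higher in that setting, beside 23.6% on the deposited scale. The replication median was then 0.07 and the mitosis median -0.22, which is 0.37 and 0.08 above all records, beside 0.41 and 0.11 on the deposited scale.

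The second comparison sets E17 beside E14 over both fractions. Replication genes were lower at E17, and few mitosis genes passed. Of 23 replication members, 10 fell and 13 did not pass limma's test, where 6.36% of all records were lower and 9.51% higher. Of 25 mitosis members, 1 fell and 24 did not pass. The median log2 difference was -0.39 for replication and -0.13 for mitosis members, beside 0.01 for all records. The level was lower at E17 in each fraction in 21 replication and 15 mitosis members, where 37.1% of records were, and higher in each in 4 mitosis members, where 37.6% of records were. The fractions serve as the only replicates of a stage.

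All 6 MCM subunits fell. Mcm2 had 49.3 FPKM at E17 against 81.3 FPKM at E14 in TRAP, and 40.8 FPKM at E17 against 55.4 FPKM at E14 in whole lung (log2 -0.57, SE 0.11, limma adjusted p = 0.031). Mcm4, which was not higher in TRAP, had 37.55 FPKM at E17 against 52.4 FPKM at E14 in TRAP, and 40.1 FPKM at E17 against 61.7 FPKM at E14 in whole lung (log2 -0.54, SE 0.10, limma adjusted p = 0.0279). The log2 differences of Mcm3 (-0.46), Mcm5 (-0.45), Mcm6 (-0.47) and Mcm7 (-0.43) were close to each other.

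Cdc6, Uhrf1, Rrm2 and Gins2 were the other replication members that fell. Cdc6, which loads the ring, had 9.47 FPKM at E17 against 15.0 FPKM at E14 in TRAP, and 7.32 FPKM at E17 against 11 FPKM at E14 in whole lung (log2 -0.57, SE 0.12, limma adjusted p = 0.0385). Uhrf1 had 68.3 FPKM at E17 against 105.5 FPKM at E14 in TRAP, and 48.6 FPKM at E17 against 69.9 FPKM at E14 in whole lung (log2 -0.57, SE 0.09, limma adjusted p = 0.0234). Both were lower at E17 in each fraction, which a pass in the joint fit makes likely. Rrm2, the regulated subunit of ribonucleotide reductase, had 63.5 FPKM at E17 against 97.5 FPKM at E14 in TRAP, and 56.2 FPKM at E17 against 81.1 FPKM at E14 in whole lung (log2 -0.57, SE 0.09, limma adjusted p = 0.0234), and Gins2 fell by 0.47 on the log2 scale. Pcna, with 305 FPKM at E17 against 377 FPKM at E14 in TRAP, and 241 FPKM at E17 against 292 FPKM at E14 in whole lung, did not pass (-0.29, limma adjusted p = 0.0889).

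The replication members that differed least were Tyms, Pola1 and Rfc4. Tyms, the thymidylate synthase gene, had 32.2 FPKM at E17 against 31.6 FPKM at E14 in TRAP, and 22.2 FPKM at E17 against 26.1 FPKM at E14 in whole lung (-0.10, limma adjusted p = 0.586). Pola1 had 9.34 FPKM at E17 against 9.002 FPKM at E14 in TRAP, and 7.25 FPKM at E17 against 9.89 FPKM at E14 in whole lung (-0.18, limma adjusted p = 0.485). Rfc4 had 41.6 FPKM at E17 against 46.45 FPKM at E14 in TRAP, and 29.5 FPKM at E17 against 34.1 FPKM at E14 in whole lung (-0.18, limma adjusted p = 0.249). Tyms and Pola1 were the only replication members that were not lower at E17 in TRAP, whereas all 23 were lower at E17 in whole lung. No member differed 2-fold between the stages within a fraction, where 4.55% of records were at least 2-fold higher and 1.82% at least 2-fold lower in TRAP, and 4.67% and 1.23% in whole lung.

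Kif20a, a kinesin of cytokinesis, was the mitosis member that fell, with 25.6 FPKM at E17 against 33.9 FPKM at E14 in TRAP, and 20.5 FPKM at E17 against 28.4 FPKM at E14 in whole lung (log2 -0.42, SE 0.10, limma adjusted p = 0.0487). Its record overlaps those of Brd8 and Cdc23, and the call was lost under a pseudocount of 0.1, a filter of 5 FPKM, no filter, a common total and limma-voom. Cenpf had 3.90 FPKM at E17 against 5.92 FPKM at E14 in TRAP, and 5.78 FPKM at E17 against 9.93 FPKM at E14 in whole lung (-0.59, limma adjusted p = 0.0503). Cenpe, a kinetochore motor gene, had 6.19 FPKM at E17 against 8.56 FPKM at E14 in TRAP, and 6.24 FPKM at E17 against 9.54 FPKM at E14 in whole lung (-0.48, limma adjusted p = 0.0694). Both lay below their E14 level in each fraction, without passing.

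None of the 6 mitotic cyclins and kinases passed between stages. Plk1 (-0.31, limma adjusted p = 0.0943) and Aurka (-0.26, limma adjusted p = 0.116) had an unadjusted p under 0.05. So did 4209 of all 12320 records, in either direction. Cdk1 had 71.9 FPKM at E17 against 66.05 FPKM at E14 in TRAP, and 57.3 FPKM at E17 against 57.2 FPKM at E14 in whole lung (0.06, limma adjusted p = 0.687). Ccnb1 had 59.7 FPKM at E17 against 63.9 FPKM at E14 in TRAP, and 54.9 FPKM at E17 against 65.8 FPKM at E14 in whole lung (-0.18, limma adjusted p = 0.262). Ccnb2 had 74.5 FPKM at E17 against 65.0 FPKM at E14 in TRAP, and 82.2 FPKM at E17 against 73.4 FPKM at E14 in whole lung (0.18, limma adjusted p = 0.228). Of these 3, Ccnb1 was lower and Cdk1 and Ccnb2 were higher at E17 in each fraction. Cenpa, the centromeric histone, had 134 FPKM at E17 against 108.5 FPKM at E14 in TRAP, and 119 FPKM at E17 against 113.5 FPKM at E14 in whole lung (0.19, limma adjusted p = 0.252). Mki67 had 11.35 FPKM at E17 against 7.44 FPKM at E14 in TRAP, and 15.9 FPKM at E17 against 16.1 FPKM at E14 in whole lung (0.27, limma adjusted p = 0.322). Top2a had 62.2 FPKM at E17 against 66.9 FPKM at E14 in TRAP, and 47.3 FPKM at E17 against 64.8 FPKM at E14 in whole lung (-0.28, limma adjusted p = 0.166).

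Within a library the distance between the classes does not depend on its scale, apart from the pseudocount. The median log2(FPKM + 1) of replication members minus that of mitosis members was 0.24 at E17 against 0.44 at E14 in TRAP, and 0.19 at E17 against 0.27 at E14 in whole lung. The classes lay closer at E17 than at E14 in either fraction, from 1 library each and with no test. Epithelial markers summed to 909 FPKM at E17 against 536 FPKM at E14 in whole lung, and endothelial markers to 404 FPKM at E17 against 220 FPKM at E14, and their part in the stage difference was not tested. With a common total, 1 replication member was called lower, where 4.92% of all records were. The medians were then -0.65 for replication and -0.40 for mitosis, beside -0.24 for all records. With no filter on low values limma called 0 replication members lower (19 at an unadjusted p under 0.05), where 0.0163% of all records were lower. In that setting 4583 of 18365 records had an unadjusted p under 0.05, in either direction. On fragments inferred from the bounds limma-voom called 3, where 4.59% of records were lower. A fit of all 8 libraries called 21, where 23.2% of records were lower.

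**Figure D4:**
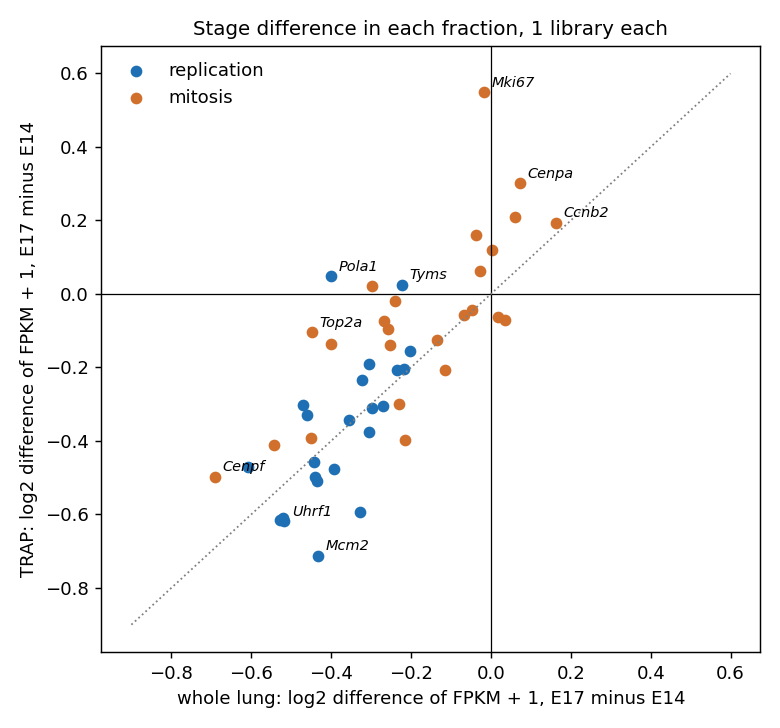
Log2 difference of FPKM + 1 of E17 over E14 in TRAP (vertical axis) and in whole lung (horizontal axis) for the 48 members, from 1 library per group. Each point is 1 gene, blue for replication and orange for mitosis, and the dotted line marks equal differences; all 23 replication points lie left of 0 and 21 of them below 0, and Mki67 is the highest point.

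Whether the stage difference itself differed between the fractions was tested with the spread of the E16 replicates, assuming that the 4 single libraries vary like them. Limma called 0 of the 48 members, where 0.351% of records passed as higher in TRAP and 0.563% as lower. An unadjusted p under 0.05 was found in 2 replication and 4 mitosis members, and in 2504 of all 12248 records. The largest contrast was that of Mki67, whose log2 stage difference was 0.55 in TRAP and -0.02 in whole lung (contrast 0.57, SE 0.15, limma adjusted p = 0.147). Pola1 (0.45, limma adjusted p = 0.256) and Top2a (0.34, limma adjusted p = 0.148) followed in size. Spearman's rho between this contrast and implied transcript length, as a description, was 0.44 over the 48 members and 0.63 over the 25 mitosis members, beside 0.15 over 12180 records, and Mki67 (13.2 kb), Pola1 (6.81 kb) and Top2a (6.635 kb) are among the longer members. The part of length in it was not tested. Standard errors of this contrast ran from 0.08 to 0.21.

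The third comparison sets Sox9 mutant beside wild-type TRAP at E16. Members of both classes were slightly lower in the mutant, and Kif23 was higher. Of 23 replication members, 7 fell and 16 did not pass limma's test, where 14.3% of all 11872 records were lower. Of 25 mitosis members, 9 fell, 1 rose and 15 did not pass, where 17.4% of all records were higher. The median log2 difference was -0.14 for replication and -0.17 for mitosis members, beside 0.01 for all records. Both mutant libraries lay below both wild-type libraries in 16 replication and 20 mitosis members, where 33.3% of records did, and above them in 3 and 2, where 36.8% of records did. Groups that do not overlap are likely in any gene that passes, so they add no support to a call.

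Kif23, a kinesin of the spindle midzone needed for cytokinesis, had 30.6 and 28.0 FPKM in the mutant libraries against 19.3 and 19.3 FPKM in the wild-type libraries. The mean was 29.3 ± 1.89 FPKM in the mutant and 19.3 ± 0.027 FPKM in the wild type (SD, n = 2 each; log2 0.58, SE 0.06, limma adjusted p = 0.00171). Both mutant libraries lay above both wild-type libraries. The other midzone members, Prc1 (-0.04, limma adjusted p = 0.608) and Kif20a (-0.07, limma adjusted p = 0.361), did not pass. Outside the members, the midzone gene Racgap1 was lower in the mutant (-0.225, limma adjusted p = 0.0309), opposite to Kif23. Ect2, also outside the members, did not pass (0.02, limma adjusted p = 0.76). Cdc20 (0.06, limma adjusted p = 0.424) and Plk1 (-0.02, limma adjusted p = 0.88) had the next highest values of the mitosis members, without passing. Cdc20 had 89.3 and 83.9 FPKM in the mutant libraries against 82.3 and 83.7 FPKM in the wild-type libraries. Plk1 had 50.5 and 60.1 FPKM in the mutant libraries against 52.5 and 59.8 FPKM in the wild-type libraries.

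Mcm10, Gins1 and Rfc4 had the lowest values of the replication members. Mcm10 had 7.39 and 7.52 FPKM in the mutant libraries against 10.6 and 10.8 FPKM in the wild-type libraries (log2 -0.47, SE 0.06, limma adjusted p = 0.00364). Gins1 had 21.45 and 22.8 FPKM in the mutant libraries against 29.6 and 28.6 FPKM in the wild-type libraries (log2 -0.38, SE 0.06, limma adjusted p = 0.00551). Rfc4 had 30.55 and 29.35 FPKM in the mutant libraries against 37.7 and 37.0 FPKM in the wild-type libraries (log2 -0.31, SE 0.05, limma adjusted p = 0.00768). In all 3 genes the groups did not overlap. The Rfc4 record overlaps that of Eif4a2, so its reads may be shared. Uhrf1 (-0.29), Gins2 (-0.26), Rrm2 (-0.25) and Mcm5 (-0.20) also fell.

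The loading factors among the members, Cdc6 and Cdt1, had positive values and did not pass. Outside the members, the origin recognition genes Orc1 (-0.19), Orc2 (-0.13), Orc5 (-0.22) and Orc6 (-0.12) had negative values. Orc3 (0.005) and Orc4 (0.125) had positive values, and none of these genes passed. Cdc6 had 9.52 and 8.62 FPKM in the mutant libraries against 8.12 and 8.08 FPKM in the wild-type libraries (0.14, limma adjusted p = 0.19). Cdt1 had 44.9 and 42.9 FPKM in the mutant libraries against 39.4 and 41.2 FPKM in the wild-type libraries (0.12, limma adjusted p = 0.145). In both the groups did not overlap. Mcm4 had 30.8 and 29.3 FPKM in the mutant libraries against 28.2 and 29.4 FPKM in the wild-type libraries (0.06, limma adjusted p = 0.45), with overlapping groups. Mcm5 had 50.7 and 51.2 FPKM in the mutant libraries against 59.7 and 58.0 FPKM in the wild-type libraries (limma adjusted p = 0.0236) and was the only subunit of the ring that passed. The other 4 subunits had negative values and did not pass. Mcm2 had 41.6 and 43.6 FPKM in the mutant libraries against 46.9 and 43.7 FPKM in the wild-type libraries (-0.09, limma adjusted p = 0.304). Mcm3 had 50.3 and 50.8 FPKM in the mutant libraries against 58.1 and 55.0 FPKM in the wild-type libraries (-0.16, limma adjusted p = 0.0653). In Mcm3 the groups did not overlap, while in Mcm2 they came close to each other. Mcm6 had 68.4 and 64.1 FPKM in the mutant libraries against 72.6 and 75.7 FPKM in the wild-type libraries (-0.16, limma adjusted p = 0.0744). Mcm7 had 84.05 and 85.8 FPKM in the mutant libraries against 91.8 and 92.3 FPKM in the wild-type libraries (-0.11, limma adjusted p = 0.105). In both the groups did not overlap.

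Among mitosis members Bub1, Birc5 and Cenpa had the lowest values. Bub1, a checkpoint kinase gene, had 9.06 and 8.43 FPKM in the mutant libraries against 11.7 and 11.7 FPKM in the wild-type libraries (log2 -0.38, SE 0.07, limma adjusted p = 0.00923). Birc5 had 189 and 193 FPKM in the mutant libraries against 234 and 241 FPKM in the wild-type libraries (log2 -0.31, SE 0.05, limma adjusted p = 0.00482). Cenpa had 126.5 and 130.5 FPKM in the mutant libraries against 157 and 162 FPKM in the wild-type libraries (log2 -0.31, SE 0.05, limma adjusted p = 0.00544). The groups did not overlap in any of these genes. By limma-voom on inferred fragments the value of Birc5 was -0.14 and did not pass (adjusted p = 0.183). Ccna2 (-0.30), Top2a (-0.26), Aurkb (-0.24), Ube2c (-0.23), Cdk1 (-0.20) and Ccnb1 (-0.17) also fell, which act in mitotic entry, chromosome condensation, the passenger complex and anaphase.

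Common markers of dividing cells differed in whether they passed. Top2a had 38.4 and 39.8 FPKM in the mutant libraries against 47.4 and 46.5 FPKM in the wild-type libraries (limma adjusted p = 0.0129). Cdk1 had 46.9 and 46.9 FPKM in the mutant libraries against 53.2 and 54.6 FPKM in the wild-type libraries (limma adjusted p = 0.0264). Ccnb1 had 47.0 and 46.4 FPKM in the mutant libraries against 51.9 and 53.5 FPKM in the wild-type libraries (limma adjusted p = 0.042). These 3 passed, with groups that did not overlap. Mki67 had 5.94 and 6.565 FPKM in the mutant libraries against 7.915 and 7.45 FPKM in the wild-type libraries and did not pass (-0.26, limma adjusted p = 0.055). Pcna had 233 and 231 FPKM in the mutant libraries against 242 and 237 FPKM in the wild-type libraries and did not pass (-0.05, limma adjusted p = 0.476).

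The mutant counts rest on few libraries and on the scale. Leaving out either wild-type library or mutant replicate 1 left fewer members, and fewer of all records, called lower. Such a fit keeps 1 library in a group. The medians were -0.12 for replication and -0.20 for mitosis without wild-type replicate 1. They were -0.13 and -0.13 without wild-type replicate 2, and -0.13 and -0.18 without mutant replicate 1. Limma-voom called 7 replication and 8 mitosis members lower, where 12.7% of all records were. It did not call Birc5, Gins2 (-0.16, adjusted p = 0.166), Ccna2 (-0.13, adjusted p = 0.278) or Ccnb1 (-0.16, adjusted p = 0.0643). With a common FPKM total, of which Mir762 held 50.05% in wild-type replicate 1, the median of all records shifted to 0.41. Limma then called 0 members of either class (0 at an unadjusted p under 0.05), where 1.4% of all records were higher and 0.48% lower. The medians were 0.29 for replication and 0.25 for mitosis. Relative to all records these lie at -0.11 and -0.15, beside -0.15 and -0.17 on the deposited scale. Epithelial markers summed to 2682 and 2573 FPKM in the mutant libraries against 2184 and 2160 FPKM in the wild-type libraries. Of the 9 tested, 7 were higher and 1 was lower. Mesenchyme markers summed to 70.9 and 134 FPKM in the mutant libraries against 105 and 144 FPKM in the wild-type libraries. Of the 8 tested, 1 was higher and 1 was lower. Endothelial markers summed to 48.2 and 38.5 FPKM in the mutant libraries against 58.6 and 70.0 FPKM in the wild-type libraries (2 of 5 tested were lower). Erythroid markers summed to 202 and 202 FPKM in the mutant libraries against 259 and 258 FPKM in the wild-type libraries (1 of 2 tested was lower). Of all records 17.4% were higher and 14.3% lower. The part of these cell types in the result was not tested.

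Gins2, Mcm5 and Uhrf1, 3 of 23 replication members, were lower in the mutant, higher in TRAP and lower at E17, where 0.95% of the 11583 records tested in all 3 comparisons were; no mitosis member was. The 0.95% takes no account of how often each class was called in the single comparisons. These counts were 7, 17 and 10 of 23 replication members, and 9, 7 and 1 of 25 mitosis members. The TRAP and stage comparisons also share their 4 libraries, so this overlap is a description.

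The subunits of the MCM ring occur in it once each, and their levels per length can be set side by side. Mcm7 was highest in all 8 libraries, from 71.7 FPKM in E17 whole lung to 144 FPKM in E14 TRAP. Mcm4 was lowest in 7 of the 8 libraries. Its level was 0.55 of the median of the other subunits at E17 and 0.52 at E14 in TRAP, against 0.82 at E17 and 0.94 at E14 in whole lung. At E16 the ratio was 0.61 and 0.57 in the mutant libraries against 0.47 and 0.51 in the wild-type libraries. All 6 TRAP libraries lay below both whole lung libraries. A ratio within a library is free of its scale, and this pattern was chosen after the values were seen and carries no test.

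**Figure D5:**
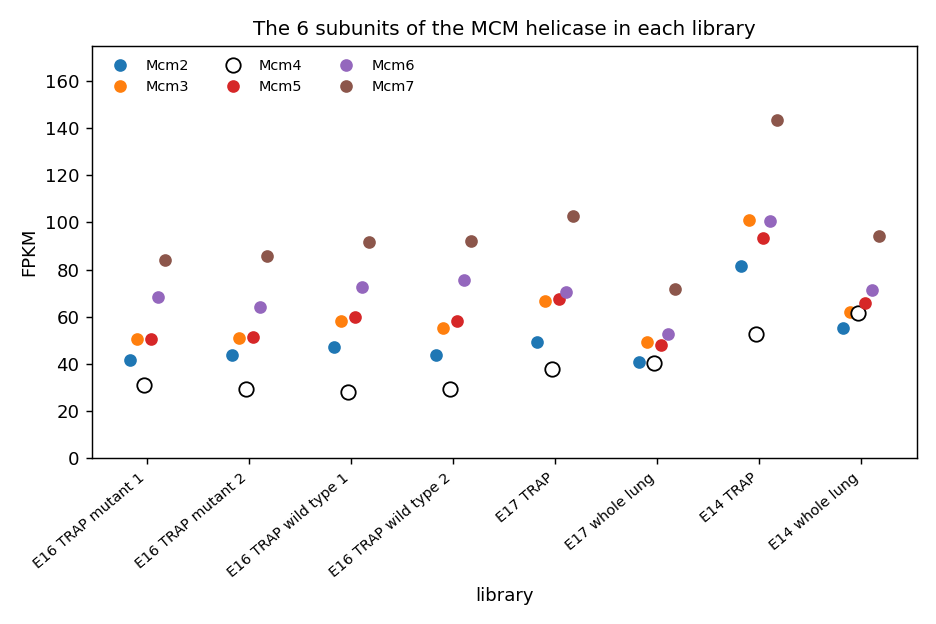
FPKM of Mcm2 to Mcm7 (vertical axis) in each of the 8 libraries (horizontal axis), 1 point per subunit and library. Mcm7 is the highest point in each library, and Mcm4, drawn as an open circle, is the lowest point in every TRAP library.

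In order of stage, the wild-type TRAP levels of most members were lowest at E16. Median FPKM of replication members was 62.8 at E14, 39.4 and 41.2 in the E16 libraries, and 49.3 at E17, and in 21 of 23 replication members both E16 libraries lay below both E14 and E17, where 29.5% of 12248 records did. Median FPKM of mitosis members was 45.9 at E14, 30.5 and 32.1 at E16, and 41.6 at E17, and in 18 of 25 both E16 libraries lay below the others. Cenpa alone lay above both, where 24.2% of records did, with 108.5 FPKM at E14, 157 and 162 FPKM at E16, and 134 FPKM at E17. No label says whether the E16 libraries were prepared with the others, so stage and preparation cannot be told apart.

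Lists of other genes of these pathways were read beside the members. Of 40 other replication genes, 13 were higher in TRAP and 27 did not pass (median log2 0.29), 5 were lower at E17 and 35 did not pass (-0.23), and 8 were lower and 2 higher in the mutant (-0.12). The shares of all records were 23.6% higher in TRAP, 6.36% lower at E17, and 14.3% lower and 17.4% higher in the mutant. Dut, which keeps uracil out of DNA, had 114 FPKM in TRAP against 64.4 FPKM in whole lung at E17, and 125 FPKM in TRAP against 66.0 FPKM in whole lung at E14 (log2 0.86, SE 0.09, limma adjusted p = 0.0023). In the mutant comparison Dut had 83.65 and 82.85 FPKM in the mutant libraries against 106.5 and 109 FPKM in the wild-type libraries (log2 -0.37, SE 0.04, limma adjusted p = 0.00249). Gmnn, the inhibitor of CDT1, was likewise higher in TRAP (0.78) and lower in the mutant (-0.40), and Exo1, an exonuclease gene, fell at E17 (-0.75, limma adjusted p = 0.0249). Of 54 other mitosis genes, 14 were higher and 1 lower in TRAP (median 0.14), 3 were lower and 1 higher at E17 (-0.13), and 19 were lower in the mutant while 35 did not pass (-0.17). The counts of these mitosis genes higher in TRAP and lower at E17 were near the shares of all records. The genes called included the condensin gene Smc2 in TRAP (0.83), Incenp of the passenger complex at E17 (-0.66), and Pbk (-0.49) and Cenpn (-0.48) in the mutant.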

How the data were processed

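The authors deposited FPKM values with lower and upper confidence bounds for 24487 records in each library, per the file headers. TopHat2 2.0.14, Bowtie2 2.2.3, Cufflinks 2.2.1, Cuffnorm and mm10 are named in the submitters' processing notes. No source used here says how library totals were set. Of the records, 750 shared a symbol with another, and the record of highest mean FPKM was taken. Fragments were inferred as the square of FPKM over its standard error, reading the distance to the upper bound as 2 standard errors, and counting errors cover counting only. Records of 9 members overlap another record, so their reads may be shared. They are Mcm7, Gins2, Rfc4, Lig1, Ccna2, Cdc20, Tpx2, Nusap1 and Kif20a.

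Differences were tested with limma 3.58.1 (R 4.3.3) on log2(FPKM + 1), which understates changes of low genes. Records averaging 1 FPKM or more in the libraries fitted were kept, the prior variance followed the mean level, p-values were two-sided, and the Benjamini-Hochberg threshold of 0.05 was taken over all of them. Mutant and wild type were fitted on the 4 E16 libraries (2 residual degrees of freedom). The TRAP and stage fit used the 4 E17 and E14 libraries with both factors (1 residual degree of freedom). The contrast of stage differences used all 8 libraries. Differences between single libraries carry no test and were counted from 2-fold. The steps were tested on simulated data. Members and lists were chosen with earlier results of these data known. Any member could be named; values per library are given for Mcm2 to Mcm7, common markers, members that passed against their class, and the 3 highest and 3 lowest of each class, and up to 3 genes of smallest p per other list. Sgol2a, Epb42 and Ahsp matched no symbol. Alternatives were another pseudocount, other filters, 3 scalings, limma-voom on inferred fragments, a fit of all libraries, a replicate block and leaving out each E16 library.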

Additional observations from a re-analysis of the deposited data

How the results depend on the processing

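Of the members called, 17 in the mutant comparison, 26 in TRAP against whole lung and 11 between stages, 3, 13 and 0 kept their call under every alternative other than rescaling to a common FPKM total, and none did with it included. For the mutant, replication members lower numbered 7, against 0 with a common total, 4 with records under 200 bases left out of the total (1 was then higher), and 2 to 7 when 1 library was left out. Mitosis members lower numbered 9, against 0 with a common total and 1 to 8 when 1 library was left out, and Kif23 was not called with a common total (0 higher). With a common total the mutant medians turned to 0.29 and 0.25, below the median of all records at 0.41, and so did the values of Mcm5 (0.25), Gins1 (0.0592), Gins2 (0.19), Rfc4 (0.14), Rrm2 (0.20), Uhrf1 (0.16), Ccna2 (0.16), Ccnb1 (0.28), Cdk1 (0.25), Ube2c (0.235), Bub1 (0.03), Birc5 (0.145), Aurkb (0.205), Cenpa (0.15) and Top2a (0.19). Centring on the median called 10 replication and 13 mitosis members lower, where 19.7% of all records were. With the replicate number as a block, 7 replication and 9 mitosis members were lower and 1 was higher, and 16 of 17 calls were kept. Same-numbered libraries did not deviate together (r = 0.01), so the number is not taken as a pairing.

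For TRAP, replication members higher numbered 17, against 0 with a common total, 10 by limma-voom and 12 with no filter. Leaving short records out of the total gave 12, where 18.6% of all records were higher. Centring on the median gave 19, where 26.2% were higher. The fit of all libraries called 20 higher and 1 lower. Mitosis members higher numbered 7, against 0 with a common total, 3 with short records left out of the total, 4 with no filter, 3 by limma-voom and 11 in the fit of all libraries. Mitosis members lower numbered 2, against 0 with no filter (2 at an unadjusted p under 0.05) and 4 in the fit of all libraries. With a common total the mitosis median turned to -0.22, Gins1 to -0.0264, Pcna to -0.0366, Plk1 to -0.00332, Cdc20 to -0.0239 and Aurkb to -0.0445. Between stages, replication members lower numbered 10, against 0 with no filter, 1 with a common total, 3 by limma-voom and 21 in the fit of all libraries. Centring gave 11, where 6.73% of all records were lower, and leaving short records out of the total gave 15, where 10.7% were. Mitosis members lower numbered 1, against 0 with a pseudocount of 0.1, a filter of 5 FPKM or no filter, 2 with centring, 3 with short records left out of the total and 9 in the fit of all libraries, which also called 3 higher. The share of all records called moved with the setting as well. In TRAP 23.6% were higher, against 4.46% with a common total and 37.9% in the fit of all libraries. At E17 6.36% were lower, against 0.0163% with no filter and 23.2% in the fit of all libraries. In the mutant 14.3% were lower, against 0.48% with a common total. The cause of these changes was not tested. In the contrast of stage differences 0 members were called under each alternative run, including the spread of the wild-type or the mutant replicates alone.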

Other observations

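E2F factors and the MuvB complex are known to control these classes. Of 20 genes for such regulators, 4 were higher in TRAP and 16 did not pass (median log2 0.06), 1 was higher and 1 lower at E17 (-0.03), and 2 were higher and 2 lower in the mutant (-0.01). These counts are near or below the shares of all records, 23.6% higher in TRAP, 9.51% higher and 6.36% lower at E17, and 17.4% higher and 14.3% lower in the mutant. E2f2 had 13.3 FPKM at E17 against 6.49 FPKM at E14 in TRAP, and 9.48 FPKM at E17 against 4.595 FPKM at E14 in whole lung (log2 0.92, SE 0.13, limma adjusted p = 0.0178). In the mutant comparison E2f2 had 14.6 and 16.2 FPKM in the mutant libraries against 10.8 and 11.4 FPKM in the wild-type libraries (log2 0.43, SE 0.07, limma adjusted p = 0.00829), and it was higher there as well. E2f6, a repressor of the family, had 22.5 FPKM at E17 against 33.4 FPKM at E14 in TRAP, and 20.5 FPKM at E17 against 31.3 FPKM at E14 in whole lung (log2 -0.57, SE 0.10, limma adjusted p = 0.027), and was higher in the mutant (0.33). E2f4 was higher in TRAP (0.61) and lower in the mutant (-0.32). Foxm1 was the other regulator lower in the mutant (-0.24, limma adjusted p = 0.044) and did not pass in TRAP (0.07, limma adjusted p = 0.595). Mybl2 (0.50), E2f2 (0.44) and E2f8 (0.38) were the others higher in TRAP, and Mybl2 did not pass in the mutant (-0.165, limma adjusted p = 0.154).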
